A study of Mus musculus with 2 samples.

Results

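The genes described here are 42 genes of the lysosome other than cathepsins: hydrolases, their activator proteins, membrane proteins, the mannose 6-phosphate sorting machinery and the MiT/TFE transcription factors. They were taken by name from a list, matched through Entrez identifiers to RefSeq symbols, and all 42 of 42 were listed in both libraries, among 15605 genes in all. RNA came from peritoneal macrophages of C57BL/6 mice aged 6 to 8 weeks, either lgmn-/- or wild type, and both kinds of cell had been kept for 4 days in co-culture with EO771, a line of mouse mammary carcinoma cells. Lgmn encodes legumain, a lysosomal cysteine protease. There was 1 lgmn-/- library and 1 wild type library, so the differences could not be set against a spread between replicates and carry no p-value. The number of mice behind each library, which part of Lgmn was deleted and whether a membrane separated the cell types are not stated in the labels.

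Lysosomes break down proteins, glycans and lipids that reach them by endocytosis, phagocytosis and autophagy, and macrophages are rich in them. Most soluble lysosomal enzymes receive a mannose 6-phosphate tag in the Golgi apparatus, and receptors for that tag carry them to endosomes. The factors Tfeb, Tfe3 and Mitf bind E-box sequences in promoters of many lysosomal genes and raise their transcription when they enter the nucleus.

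Library depth was alike, at 11740202 estimated counts for lgmn-/- and 11885784 for wild type. Lgmn had 426 estimated counts in the lgmn-/- library and 23550 in the wild type library, so the libraries matched their genotype labels. Macrophage markers were abundant in both, with Lyz2, which encodes lysozyme, at 12481 FPKM in lgmn-/- and 13192 FPKM in wild type cells (FPKM, as the authors deposited it, is the fragment count scaled for transcript length and for library size). Timd4 and Gata6, which mark resident large peritoneal macrophages, were below 1 FPKM in both. The summed level of 13 fibroblast markers was 28.4 FPKM in lgmn-/- against 89.6 FPKM in wild type, and that of 13 T and NK cell markers was 299 FPKM in lgmn-/- against 158 FPKM in wild type. Of 13 epithelial carcinoma markers only Krt19 reached 50 counts in either library, at 0.37 FPKM in lgmn-/- and 4.65 FPKM in wild type. The other 12 summed to 1.08 FPKM in lgmn-/- and 1.22 FPKM in wild type, and Epcam was at 0.08 FPKM in lgmn-/- and 0.04 FPKM in wild type. The part of these other cells in the ratios that follow was not tested, and in bulk RNA fewer cells of a type and less RNA per cell cannot be told apart.

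Most of the lysosomal genes had similar levels in lgmn-/- and wild type cells: 37 of 42 differed by less than 1.5-fold. So did most genes of the libraries, 7329 of the 9498 genes tested. The ratio of lgmn-/- over wild type was taken from estimated counts scaled with TMM factors, which assume that most genes do not differ, with 1 scaled count added to each. Of the 42 genes, 1 was at least 2-fold higher in lgmn-/- cells, Igf2r, against 6.05% of the 9498 genes tested, those that reached 50 estimated counts in either library. None was at least 2-fold lower, against 1.74% of all genes. At 1.5-fold, 1 gene was higher (16.4% of all genes) and 4 were lower, Gaa, Arsb, Gm2a and Cd68 (6.39% of all genes). Library totals in place of TMM turned the 1.5-fold count to 6 higher (27.1% of all genes) and 0 lower (2.66%), and so did deposited FPKM, with 26.3% of all genes higher and 2.65% lower; the 6 were Man2b1, Sgsh, Npc1, Igf2r, Tfe3 and Mitf. Igf2r stayed the only gene at least 2-fold higher with totals (10.9% of all genes) and with FPKM (9.85%), and 0 were 2-fold lower (1.14% and 1.07%).

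The median log2 ratio of the 42 genes was -0.18, and that of all genes was -0.00028. Library totals and deposited FPKM moved the median of all genes up by 0.24 and 0.23 on the log2 scale, and with them that of the 42 genes, to 0.059 and 0.061. The distance between the medians stayed at -0.18 with totals and was -0.17 with FPKM. Because of this shift, higher and lower here mean relative to the median of all genes, which TMM scaling puts at 0. Of the 42 genes, 27 lay below that median and 15 above it. The quartiles of the 42 ratios ran from -0.38 to 0.07, against -0.29 to 0.39 for all genes. Where only genes with at least 200 counts in the higher library enter the median of all genes, it lies at -0.08 and the distance of the 42 genes from it is -0.10. Library totals, DESeq2 size factors and centring move all genes by nearly the same amount, so by construction they leave each gene on its side of the median of all genes. Adjustment for transcript length, described further on, can move a gene across. Each scaling being set against its own median of all genes, 11 of the 42 genes lay above it and 26 below it both with and without that adjustment. The other 5, Manba, Ids, Scarb2, Gnptab and M6pr, changed side with it.

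**Figure D1:**
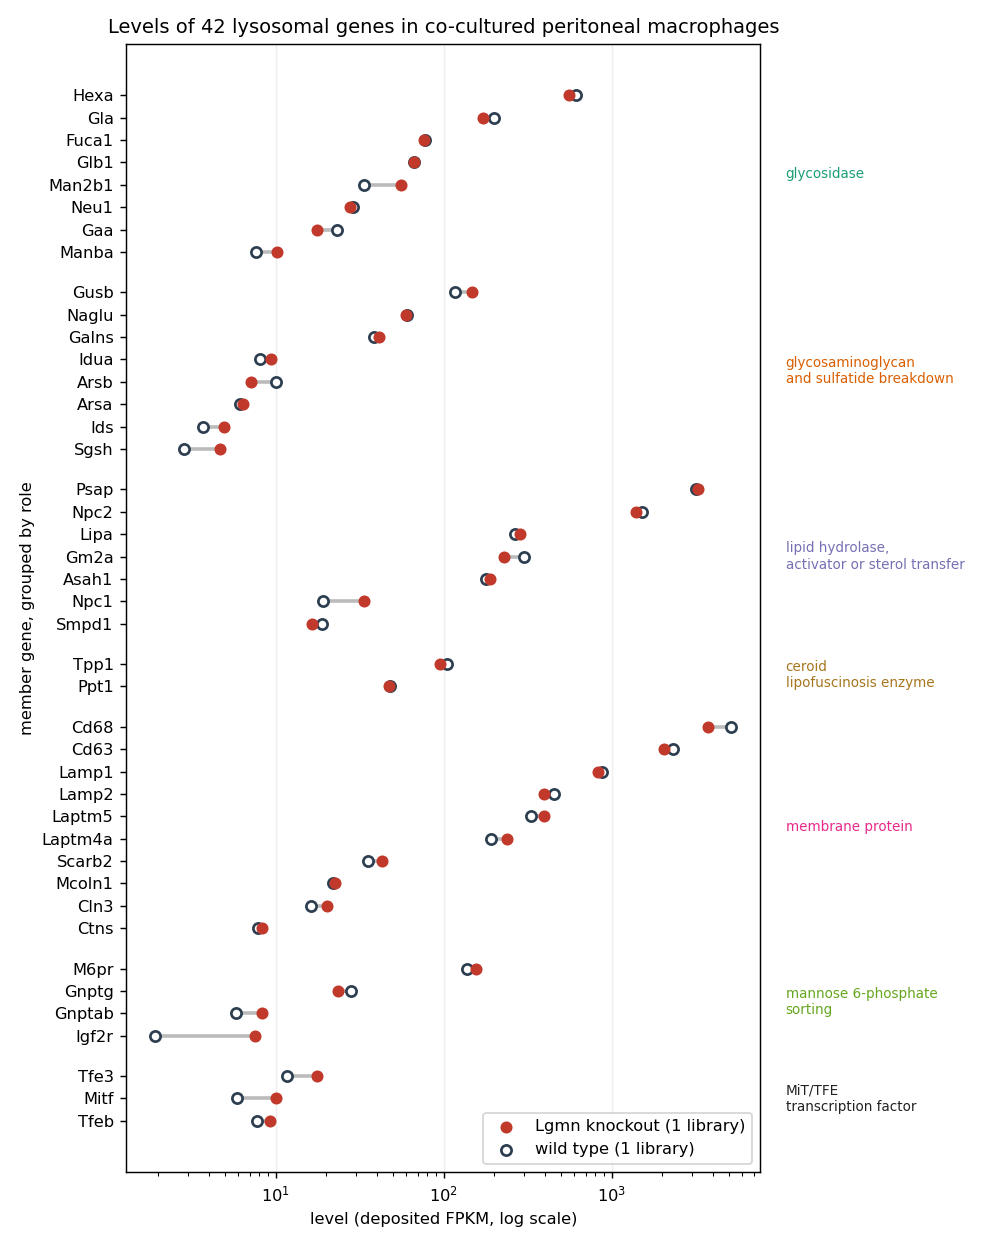
Deposited FPKM (log scale) of the 42 lysosomal genes in the lgmn-/- library (filled) and the wild type library (open), grouped by role; each point is 1 library. The order of the levels is nearly shared, with Cd68 and Psap highest in both, and Igf2r has the widest gap, at 7.56 FPKM in lgmn-/- and 1.92 FPKM in wild type.

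Levels per length spanned 3 orders of magnitude. The highest in both libraries was Cd68, at 3756 FPKM in lgmn-/- and 5172 FPKM in wild type, and the next were Psap, Cd63, Npc2 and Lamp1 in the same order in both. The lowest was Sgsh in lgmn-/- cells, at 4.68 FPKM, and Igf2r in wild type cells, at 1.92 FPKM. The gap between the highest and the lowest of the 42 was 803-fold in lgmn-/- and 2694-fold in wild type. Above 100 FPKM in both libraries stood 15 of the genes, and below 10 FPKM in both stood 8. Across the 42 genes the Spearman rho of the FPKM levels between the libraries was 0.983, a description of how alike the order is. The 42 genes took 3.11% of the estimated counts in lgmn-/- (95% exact binomial interval 3.10 to 3.12) and 3.34% in wild type (3.33 to 3.35). Intervals given here describe counting error alone, as no molecular identifiers are described that would tell PCR copies of 1 molecule apart. Cd68, Psap and Npc2 made up most of it, with 211485 of 365353 counts in lgmn-/- and 238203 of 396841 in wild type, while the other 39 genes took 1.31% in lgmn-/- and 1.33% in wild type.

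The MiT/TFE factors are the transcriptional regulators of the list. All 3 had ratios above the median of all genes, and none reached 1.5-fold under TMM scaling. Mitf, known for its roles in melanocytes and osteoclasts, had 588 estimated counts in lgmn-/- and 352 in wild type, a ratio 1.43-fold higher (95% counting interval 1.25 to 1.64). Its transcript is long, and its log2 ratio of 0.52 was 0.13 relative to genes of like length. Tfe3, which shares much of its targets with Tfeb, had 654 counts in lgmn-/- and 433 in wild type, 1.30-fold higher (1.15 to 1.47). Its log2 ratio of 0.37 was 0.32 relative to genes of like length. Tfeb, the best known driver of lysosomal gene expression, had 260 counts in lgmn-/- and 220 in wild type, a ratio of 1.01 with an interval of 0.844 to 1.22 that includes equal levels. With library totals or FPKM, Tfe3 and Mitf passed 1.5-fold. Per length, Tfe3 was the highest of the 3 in both libraries, at 17.8 FPKM in lgmn-/- and 11.7 FPKM in wild type. These values are transcript levels, and the activity of these factors depends on where the protein is in the cell.

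These factors bind the E-box CACGTG, and the CLEAR element of lysosomal promoters is this E-box with GT before it and AC after it. RefSeq promoter sequences of GRCm38.p6, from 250 bases before to 50 after a gene's start, were used for 38 of the 42 genes; Npc1, M6pr, Asah1 and Galns have no entry in the table. CACGTG stood in at least 1 promoter of 11 of these 38 genes (28.9%), against 8.09% of all 27025 genes with a promoter in the table. Those 27025 include genes not listed in either library, whereas all 42 genes were listed in both, so the shares are not matched for expression. GTCACGTG or its reverse complement CACGTGAC, 8 letters of the element chosen after the values were seen, stood in 10 of 38 genes (26.3%), against 2.55% of all genes. TCACGTGA stood in 5 of 38 genes and 1.12% of all genes, the full element in 2 of 38 genes and 0.370% of all genes, and TCATGTGA or TCACATGA, the M-box form that Mitf also binds, in 4 of 38 genes and 1.15% of all genes. Both strands were searched, and the motifs overlap, since CACGTG lies inside all but the last. A match describes letters in a window and does not show binding.

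The 2 genes with the full element were Igf2r and Cln3, whose promoters are shown with that of Mcoln1, the calcium channel of lysosomes. Capitals mark matches to GTCACGTG, TCACGTGA, the full element or TCATGTGA on either strand, and sequences run 5′ to 3′ on the strand of the gene. The Igf2r promoter (chr17:12769657-12769956, minus strand, GRCm38.p6) holds 3 separate blocks: TCATGTGA beginning at position -92 from the start, GTCACGTGA at -50 and the full element at -9. That of Cln3 (chr7:126583187-126583486, minus strand) holds the full element at -123, and that of Mcoln1 (chr8:3500269-3500568, plus strand) holds GTCACGTG at -73 and TCACGTGAC at -46.
Igf2r: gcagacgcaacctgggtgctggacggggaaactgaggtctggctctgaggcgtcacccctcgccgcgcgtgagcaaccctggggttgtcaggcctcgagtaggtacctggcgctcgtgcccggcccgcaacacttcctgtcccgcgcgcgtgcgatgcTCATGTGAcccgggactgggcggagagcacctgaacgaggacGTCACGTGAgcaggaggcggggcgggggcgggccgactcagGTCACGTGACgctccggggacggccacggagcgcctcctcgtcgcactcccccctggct
Cln3: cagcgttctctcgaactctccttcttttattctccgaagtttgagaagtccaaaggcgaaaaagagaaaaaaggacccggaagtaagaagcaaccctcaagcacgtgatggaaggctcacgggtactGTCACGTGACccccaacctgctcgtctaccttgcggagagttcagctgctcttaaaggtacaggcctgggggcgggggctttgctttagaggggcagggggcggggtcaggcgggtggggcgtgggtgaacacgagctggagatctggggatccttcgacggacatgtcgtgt
Mcoln1: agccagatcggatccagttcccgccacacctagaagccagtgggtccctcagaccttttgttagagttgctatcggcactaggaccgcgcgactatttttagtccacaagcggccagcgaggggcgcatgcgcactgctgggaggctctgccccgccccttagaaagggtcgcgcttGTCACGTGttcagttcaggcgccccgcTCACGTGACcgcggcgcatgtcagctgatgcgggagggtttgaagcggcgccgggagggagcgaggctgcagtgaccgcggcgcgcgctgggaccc

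The other 7 genes with GTCACGTG or its reverse complement are shown as 40 bases around the first match, to let the flanks be compared. In GRCm38.p6 they lie at Lamp1 chr8:13159117-13159156 on the plus strand, Glb1 chr9:114401012-114401051 on the plus strand, Naglu chr11:101070003-101070042 on the plus strand, Sgsh chr11:119355516-119355555 on the minus strand, Arsa chr15:89477419-89477458 on the minus strand, Gnptg chr17:25240114-25240153 on the minus strand and Gla chrX:134601178-134601217 on the minus strand.
Lamp1: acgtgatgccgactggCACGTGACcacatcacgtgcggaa
Glb1: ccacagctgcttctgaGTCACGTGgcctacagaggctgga
Naglu: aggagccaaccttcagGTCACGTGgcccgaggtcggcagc
Sgsh: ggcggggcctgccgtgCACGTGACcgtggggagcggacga
Arsa: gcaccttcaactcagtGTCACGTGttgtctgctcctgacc
Gnptg: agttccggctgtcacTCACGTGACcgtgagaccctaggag
Gla: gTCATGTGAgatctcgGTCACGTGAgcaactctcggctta

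For the full element the median log2 ratio was 0.90 over the 2 genes that hold it, which is the mean of Igf2r and Cln3, and -0.22 over the 36 that do not. Adjusted for transcript length, these medians were 0.47 and -0.21. Without that adjustment, the median for CACGTG was -0.24 in the 11 genes with a match and -0.17 in the 27 without. For TCACGTGA it was -0.20 in the 5 genes with a match and -0.20 in the 33 without. For TCATGTGA it was -0.33 in the 4 genes with a match and -0.19 in the 34 without. For the 8-letter form chosen after the values were seen, it was -0.22 in the 10 genes that hold GTCACGTG and -0.19 in the 28 that do not, and 3 of the 10 and 11 of the 28 lay above 0. Igf2r had the highest ratio of all 42 genes, at 1.73, whereas Mcoln1 was at -0.20 and Cln3 at 0.07. Gla, whose window holds both TCATGTGA and GTCACGTGA, had a ratio of -0.44. Gnptg, with TCACGTGAC, was at -0.51.

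Igf2r stood apart from the other sorting genes. It encodes the cation-independent mannose 6-phosphate receptor, which carries tagged enzymes to endosomes and takes up insulin-like growth factor II. It had 813 estimated counts in lgmn-/- and 209 in wild type, or 7.56 FPKM in lgmn-/- and 1.92 FPKM in wild type, and was 3.33-fold higher in lgmn-/- cells (95% counting interval 2.86 to 3.90). Its transcript of 8948 bases is the longest of the 42, and in the group of the longest transcripts, above 5920 bases, 308 of 950 genes (32.4%) were at least 2-fold higher. With the length trend of all genes removed, its log2 ratio of 1.73 was 0.81, under 2-fold. It was then the only one of the 42 at or above the 90th percentile of all genes, at percentile 96.1. The antisense RNA Airn overlaps Igf2r and had 58 counts in lgmn-/- and 72 in wild type. The labels do not state whether counting used strand, so reads from the shared stretch cannot be assigned to one or the other with certainty.

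M6pr, the cation-dependent receptor for the same tag, was the more abundant of the receptors, and its ratio lay near the median of all genes. It had 4156 counts in lgmn-/- and 3771 in wild type, and its log2 ratio was -0.08 with TMM, 0.16 with library totals and 0.01 once adjusted for length. Per length, M6pr stood 20.5-fold above Igf2r in lgmn-/- cells and 72.3-fold above it in wild type cells. FPKM does not remove the trend of the ratios with transcript length, and Igf2r has the longest transcript of the list. The change between these 2 values is therefore not adjusted for that trend. The tag itself is made by a phosphotransferase whose catalytic subunits come from Gnptab and whose remaining subunit comes from Gnptg. Gnptab had 518 counts in lgmn-/- and 366 in wild type, with a log2 ratio of 0.28 and a length-adjusted one of -0.16 for its transcript of 5204 bases. Gnptg, with a short transcript, had 338 counts in lgmn-/- and 413 in wild type, 1.42-fold lower (1.23 to 1.65), and lay below the median of all genes with and without length adjustment.

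The soluble enzymes, activators and sterol transfer genes, 25 in number, had a median log2 ratio of -0.24, and 19 of them lay below the median of all genes. After length adjustment 21 of the 25 lay below 0, with a median of -0.22. Among glycosidases, which remove sugars from glycoproteins, glycolipids and glycogen, 6 of 8 lay below the median of all genes. Gaa, the acid alpha-glucosidase that degrades glycogen, had 736 counts in lgmn-/- and 988 in wild type, 1.56-fold lower (1.42 to 1.72). Hexa, the alpha subunit of beta-hexosaminidase and the most abundant of these, stood at 558 FPKM in lgmn-/- and 615 FPKM in wild type, a log2 ratio of -0.38. Gla, alpha-galactosidase A, was at 173 FPKM in lgmn-/- and 199 FPKM in wild type. These 3 genes lay below the median of all genes after length adjustment too. Fuca1 (alpha-fucosidase), Neu1 (sialidase) and Glb1 (beta-galactosidase) had log2 ratios of -0.27, -0.30 and -0.24.

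The mannosidases were the exceptions among the glycosidases before length adjustment. Man2b1, the lysosomal alpha-mannosidase, had 2904 counts in lgmn-/- and 1752 in wild type, 1.42-fold higher (1.34 to 1.51), and 56.1 FPKM in lgmn-/- against 33.4 FPKM in wild type. On the log2 scale this was 0.51, and 0.22 relative to genes of like length. Manba, the beta-mannosidase, had 447 counts in lgmn-/- and 343 in wild type, and its interval of 0.969 to 1.29 includes equal levels.

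Enzymes that degrade glycosaminoglycans and sulfatides spread to both sides. Of 8 genes, 5 lay below the median of all genes and 3 above it, and after length adjustment 6 lay below 0. Arsb, the sulfatase for dermatan and chondroitin sulfate, had the lowest ratio of all 42 genes, with 340 counts in lgmn-/- and 486 in wild type, 1.66-fold lower (1.45 to 1.92). Adjusted for length, its log2 ratio went further down, to -0.97 in place of -0.73. Sgsh, a sulfatase of heparan sulfate, went the other way, with 242 counts in lgmn-/- and 150 in wild type, 1.38-fold higher (1.12 to 1.71). On the log2 scale this was 0.47, and 0.18 relative to genes of like length. Gusb, beta-glucuronidase, is the most abundant of the group, at 147 FPKM in lgmn-/- and 117 FPKM in wild type, with a log2 ratio of 0.09. Naglu, which also acts on heparan sulfate, had a log2 ratio of -0.26. Galns, Idua, Ids and Arsa lay between -0.19 and 0.17. Idua is the alpha-iduronidase, Ids a sulfatase acting on iduronate, Galns a sulfatase of keratan sulfate and Arsa the sulfatase of sulfatides.

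Among the genes of lipid breakdown and sterol transfer, 6 of 7 lay below the median of all genes. Psap, the precursor of the saposins that present sphingolipids to their hydrolases, had 101691 counts in lgmn-/- and 100399 in wild type, with a log2 ratio of -0.20, or 0.04 by library totals. Gm2a, the activator that lifts GM2 ganglioside out of the membrane for beta-hexosaminidase, had 11662 counts in lgmn-/- and 15556 in wild type, 1.55-fold lower (1.52 to 1.59). On the log2 scale this was -0.64, and -0.92 relative to genes of like length. Gm2a and Hexa act on the same lipid, and both lay below the median of all genes with and without length adjustment. Smpd1, acid sphingomyelinase, had a log2 ratio of -0.43, and Asah1 and Lipa, acid ceramidase and acid lipase, had log2 ratios of -0.16 and -0.15. Tpp1, a tripeptidyl peptidase, and Ppt1, a palmitoyl thioesterase, both mutated in human neuronal ceroid lipofuscinosis, had log2 ratios of -0.38 and -0.27.

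The cholesterol transfer proteins differed from each other. Npc2, the soluble protein that binds cholesterol in the lumen, had 54460 counts in lgmn-/- and 60545 in wild type, 1.30-fold lower (1.28 to 1.31). Npc1, the membrane protein that receives the cholesterol from Npc2, had 2100 counts in lgmn-/- and 1206 in wild type, 1.49-fold higher (1.39 to 1.61), just short of 1.5-fold. The log2 ratio of Npc1 was 0.58 and that of Npc2 was -0.37, and after length adjustment they were 0.14 and -0.47. Rmc1 overlaps Npc1 and had 591 counts in lgmn-/- and 501 in wild type.

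**Figure D2:**
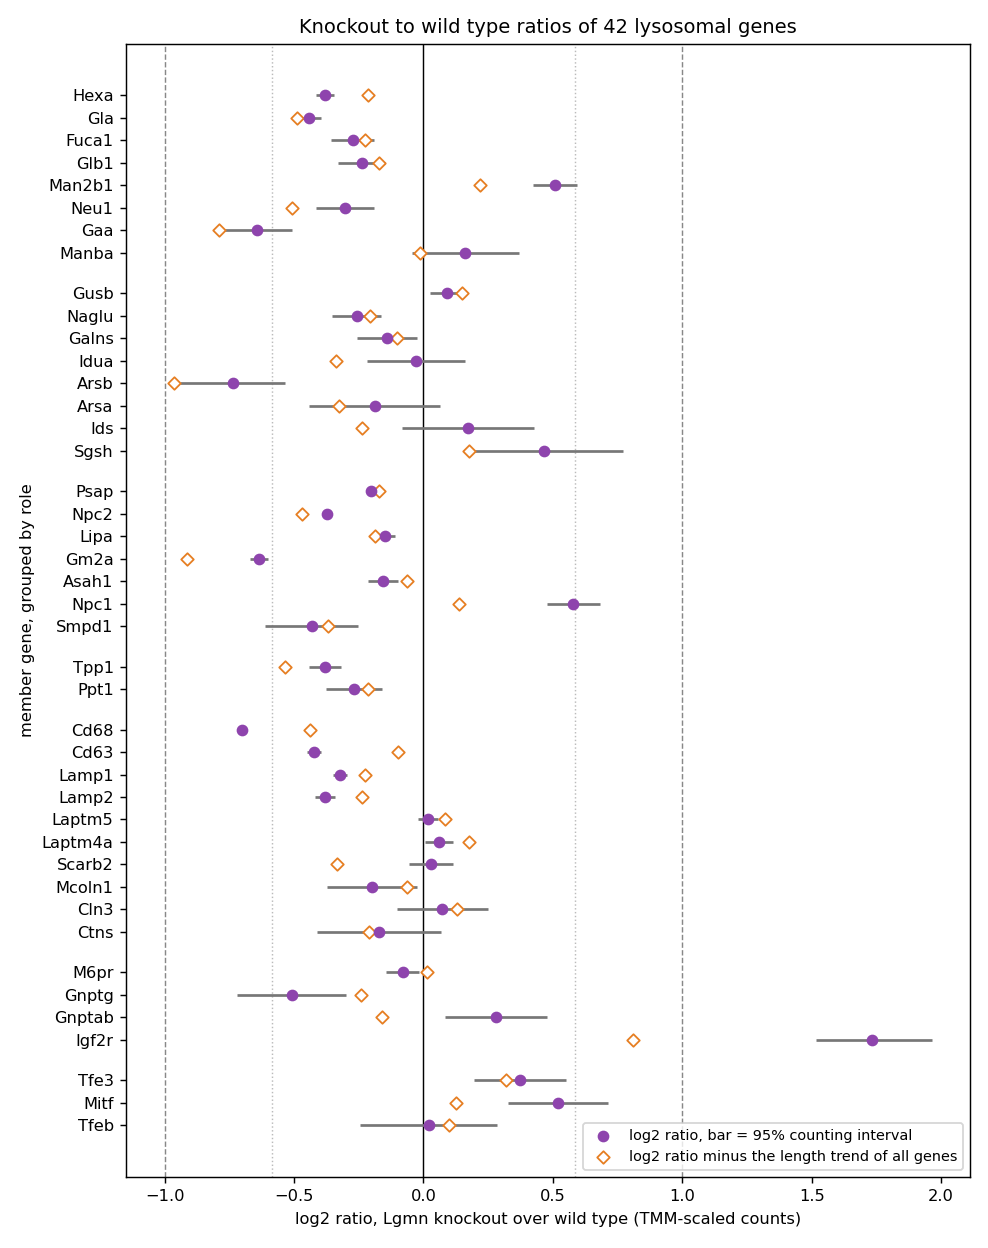
Log2 ratio of lgmn-/- over wild type for each of the 42 genes (filled, with its 95% counting interval) and the same value minus the length trend of all genes (open diamonds); dashed lines mark 2-fold and dotted lines 1.5-fold. Igf2r at 1.73 is the only gene past a dashed line, and its length-adjusted value of 0.81 is inside it; Arsb, Cd68, Gaa and Gm2a lie past the lower dotted line.

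Membrane proteins had a median log2 ratio of -0.19, with 6 of 10 below the median of all genes. Cd68, the macrosialin of macrophage lysosomes and a marker of the cell type, had 55334 counts in lgmn-/- and 77259 in wild type, 1.63-fold lower (1.61 to 1.65). It has a short transcript, with a log2 ratio of -0.70, or -0.44 adjusted for length and -0.46 by library totals. Of 11 macrophage markers tested, Cd68 among them, 6 lay below the median of all genes and 5 above it. After length adjustment 4 lay below 0 and 7 above it. Among the 5, Adgre1, which encodes F4/80, had 4276 counts in lgmn-/- and 2641 in wild type. Csf1r, the receptor for macrophage colony-stimulating factor and also among the 5, had 8936 in lgmn-/- and 3932 in wild type. The log2 ratios of Adgre1 and Csf1r were 0.47 and 0.96, or 0.39 and 0.75 adjusted for length. Cd63, a tetraspanin, had 21811 counts in lgmn-/- and 25100 in wild type, a log2 ratio of -0.42 that came to -0.10 among genes of like length. Lamp1 and Lamp2, the heavily glycosylated proteins that line the lysosomal membrane, had log2 ratios of -0.32 and -0.38. Cd68, Cd63, Lamp1 and Lamp2 lay below the median of all genes with and without length adjustment. The transcript length of Lamp2, weighted over its isoforms in the deposited tables, was 2014 bases in lgmn-/- and 1958 bases in wild type, the widest such difference among the 42 genes, so its mix of isoforms was estimated differently in the libraries.

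Of the remaining 6 membrane proteins, 4 had a log2 ratio between 0.02 and 0.07, and Mcoln1 and Ctns were at -0.20 and -0.17. Laptm5 and Laptm4a, small membrane proteins of several passes, had 11308 and 5991 counts in lgmn-/- and 9592 and 4936 in wild type, log2 ratios of 0.02 and 0.06. Scarb2, which carries glucocerebrosidase to lysosomes, had 2438 counts in lgmn-/- and 2052 in wild type, and a log2 ratio of 0.03, or -0.34 adjusted for length. Cln3, mutated in human juvenile ceroid lipofuscinosis, had 598 counts in lgmn-/- and 488 in wild type. Mcoln1 had 547 counts in lgmn-/- and 539 in wild type, which after TMM scaling is 1.15-fold lower (1.02 to 1.30). Ctns, the cystine exporter, had 297 counts in lgmn-/- and 287 in wild type, and its interval includes equal levels.

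**Figure D3:**
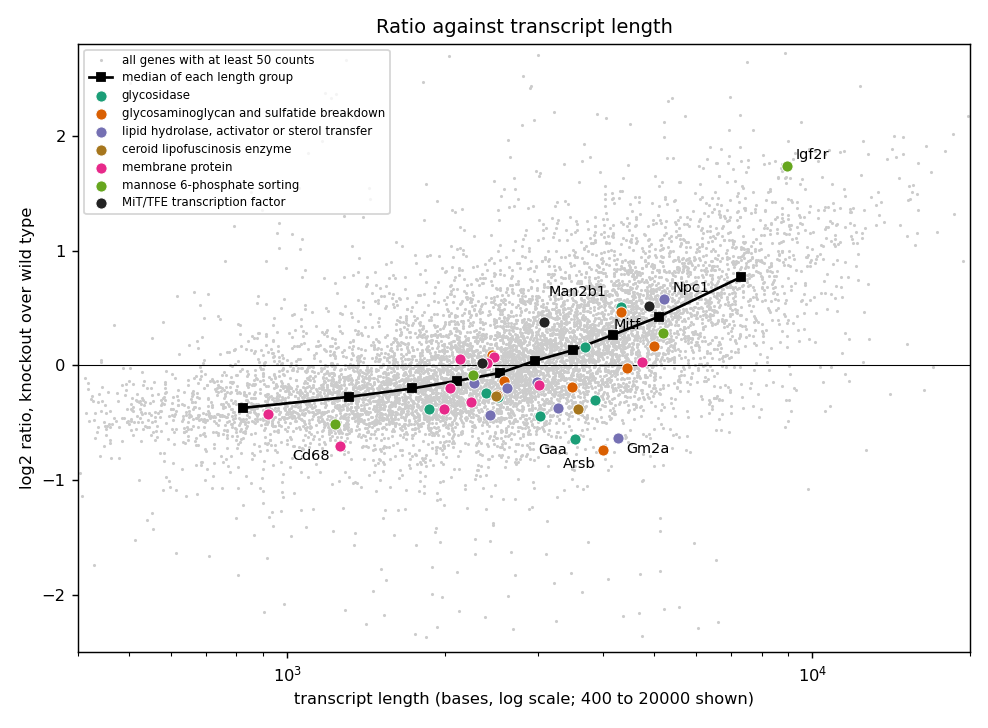
Log2 ratio of lgmn-/- over wild type against transcript length (log scale) for all genes with at least 50 counts (grey), the median of each of 10 length groups (black squares) and the 42 lysosomal genes (coloured by role). Ratios of all genes climb with length, and most of the 42 genes lie under the black line, with Igf2r far to the right at 8948 bases.

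Ratios of the 42 genes were higher for longer transcripts, with a lower rank correlation than over all genes. The Spearman rho of the log2 ratio with length was 0.459 across the 42 genes, 0.418 without Igf2r and 0.609 across all 9498 genes, given as descriptions since genes of a library share its preparation. Of the 10 genes with transcripts of 4000 bases or more, 8 lay above the median of all genes, and of the 32 shorter ones 25 lay below it. After the trend of all genes was removed, rho was -0.04 across the 42 genes. Of the 42, 30 (71.4%) then lay below 0, against 51.1% of all genes, and their median was -0.20 against -0.01 for all genes. None was then at least 2-fold higher (2.14% of all genes) or 2-fold lower (1.91%). Igf2r was at least 1.5-fold higher (7.72% of all genes were), and Gaa, Arsb and Gm2a were at least 1.5-fold lower (6.31%). At or below the 10th percentile of all adjusted ratios stood 7 of the 42.

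**Figure D4:**
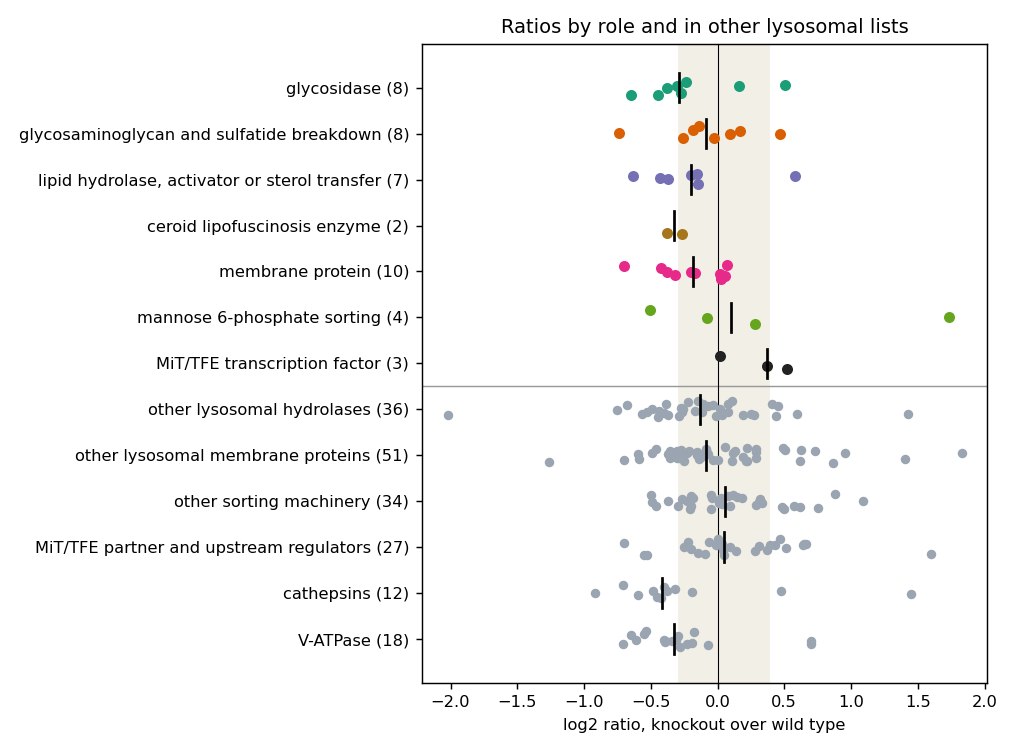
Log2 ratios of the 42 genes by role (coloured) and of other lysosomal lists (grey), with the number of genes in brackets; black bars are medians and the shaded band runs between the quartiles of all genes. MiT/TFE factors have the highest median of the roles, at 0.37, and cathepsins and V-ATPase subunits lie lower, at -0.41 and -0.33.

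The cathepsins and the proton pump that acidifies the lysosome lay on the same side of the median as the enzymes. The 12 cathepsins tested had a median log2 ratio of -0.41, with 10 below the median of all genes. Of the 12, 1, Ctsw, was at least 2-fold higher (6.05% of all genes) and 0 were lower (1.74%). Ctsw had few counts, 75 in lgmn-/- and 23 in wild type, or 4.44 FPKM in lgmn-/- and 1.34 FPKM in wild type. After length adjustment 1, Ctsw, was at least 2-fold higher (2.14% of all genes) and 1, Ctsl, at least 2-fold lower (1.91%). The log2 ratio of Ctsl was then -1.06 in place of -0.91. The 18 V-ATPase subunits had a median of -0.33, with 16 below, and 0 passed 2-fold in either direction. After length adjustment the medians were -0.29 and -0.21, beside -0.20 for the 42 genes, and the difference between the lists was not tested.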

How the data were processed

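RNA of 1 lgmn-/- and 1 wild type sample was read on a BGISEQ-500 instrument (per the labels' protocols), and samples were grouped by genotype label. The deposited tables hold, per the file headers, an FPKM and an estimated count (RSEM's expected count, reads shared between transcripts being divided among them by the authors' program) for each Entrez gene. The authors' FPKM is scaled for transcript length and library size, and transcript length is a further deposited column. Per the submitters' processing notes the tools were HISAT2, Bowtie2 and RSEM and the build mm10, with no version given. Estimated counts were not whole in 7 of the 42 genes, and 12 overlap another listed gene. All 42 had at least 150 counts in each library.

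Symbols came from RefSeq (GRCm38.p6), which matched 15561 of 15605 identifiers. Rounded counts gave TMM factors of 1.09 (lgmn-/-) and 0.921 (wild type) in edgeR 4.0.16 under R 4.3.3. Log2 ratios of lgmn-/- over wild type used a pseudocount of 1 and a minimum of 50 counts in the higher library. Intervals are 95% exact Clopper-Pearson intervals of the lgmn-/- share of the counts. The length trend was a lowess fit of the log2 ratio on log2 length over all genes tested (span 0.3, statsmodels 0.14.6). Alternatives were DESeq2 1.42.0 size factors, library totals, median centring, FPKM plus 0.1, other minimums and pseudocounts, thinning and a span of 0.6. Calculations were tested on simulated data. The genes named are all 42, Lgmn, cell type markers and, from other lysosomal lists, the 3 genes with the largest ratios, of which 1 is not reported here; Airn and Rmc1 were added after their values were seen. Members, lists and thresholds were chosen with earlier results of these data known. A comparison of protein sequences was not analysed here.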

Additional observations from a re-analysis of the deposited data

How the results depend on the processing

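The log2 ratio of Lgmn was -6.01, and -5.77 with library totals, -5.76 with deposited FPKM, -5.84 with the length trend removed at a span of 0.3 and -5.85 at 0.6. The median of the 42 genes, -0.18, became 0.059 with library totals and 0.061 with FPKM, where the median of all genes also moved up; leaving out Igf2r, an alternative chosen after seeing the data, gave -0.19. The number at least 1.5-fold higher was 6 and the number at least 1.5-fold lower was 0 with library totals and with FPKM, in place of 1 and 4. The number at least 2-fold higher was 0 in place of 1 with the length trend removed at either span. The share of the 42 genes in summed FPKM was 2.04% in lgmn-/- and 2.15% in wild type. DESeq2 size factors, median centring, thinning of the deeper library, and pseudocounts of 0.5 and 5 left these counts within 1.5 times and the median between -0.19 and -0.18. Minimums of 10, 200 or no counts cannot move the median of the 42 genes, which all pass them, but move that of all genes, and the distance from it, -0.18, became -0.20 at 10, -0.10 at 200 and -0.18 with no minimum. With library totals and with FPKM, 37 of the 42 ratios left their own counting interval, and with the length trend removed 25 did at a span of 0.3. No paired analysis was possible because each group has 1 library. Depth limits the genes with few counts, such as Sgsh, Tfeb, Ids and Arsa, whose intervals are the widest.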

Other observations

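Of 36 other lysosomal hydrolases and associated soluble proteins tested, 1 was past 2-fold upward in lgmn-/- cells (6.05% of all genes) and 1 downward (1.74%), with a median log2 ratio of -0.13. Plbd1, a phospholipase B-like protein, had 237 counts in lgmn-/- and 829 in wild type, 4.06-fold lower. Smpdl3b, a sphingomyelinase-like protein of the plasma membrane, had 535 counts in lgmn-/- and 170 in wild type, 2.69-fold higher. Aga, which removes asparagine from glycans, had 570 counts in lgmn-/- and 825 in wild type, 1.69-fold lower. After length adjustment the log2 ratios of Plbd1 and Smpdl3b were -1.88 and 1.58, so both remained past 2-fold.

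Of 51 other membrane proteins of lysosomes and endosomes tested, 2 were past 2-fold upward (6.05% of all genes) and 1 downward (1.74%), with a median of -0.08. Adjusted for length it was 2 upward, Abca2 and Cd1d1 (2.14% of all genes), and 2 downward, Cd81 and Slc38a9 (1.91%); Cd1d1 and Slc38a9 are named here after their values were seen. Cd81, a tetraspanin like Cd63, had 219 counts in lgmn-/- and 451 in wild type, with a log2 ratio of -1.26, or -1.03 adjusted for length. Slc36a1, a proton-coupled amino acid exporter, had 252 counts in lgmn-/- and 81.1 in wild type, with a log2 ratio of 1.41, or 0.95 adjusted. Abca2, a lipid transporter, had 98 counts in lgmn-/- and 23 in wild type. Among 34 further genes of endosomal sorting, the receptors Sorl1 and Sort1 had log2 ratios of 1.09 and 0.88, with long transcripts, and 0.40 and 0.20 after adjustment; Ap3d1, an adaptor subunit, had 0.75 and 0.39. Of these 34, 1 was past 2-fold upward (6.05% of all genes) and 0 downward (1.74%). Adjusted for length, 0 passed 2-fold upward (2.14%) or downward (1.91%).

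The 27 partners and upstream regulators of the MiT/TFE factors tested had a median log2 ratio of 0.05, and -0.06 adjusted for length. Bhlhe40, an E-box repressor, had 1647 counts in lgmn-/- and 2297 in wild type, a log2 ratio of -0.70. Ywhab, which encodes a 14-3-3 protein, had 958 counts in lgmn-/- and 520 in wild type, a log2 ratio of 0.66.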
